A study of Mus musculus with 6 samples.

Results

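The genes described here are 10 markers of mural cells, the pericytes and smooth muscle cells that wrap blood vessels. They were chosen by symbol with earlier results of these data known. All 10 were found among the 22851 genes of the deposited table. Of these, 6 are taken as contractile or smooth muscle genes (Acta2, Tagln, Myl9, Cnn1, Myh11 and Des) and 4 are taken as pericyte genes (Pdgfrb, Cspg4, Rgs5 and Kcnj8). RNA came from cultures of radial glial cells, the progenitors lining the brain ventricles, taken from the brains of mouse pups at postnatal day 0 to 3 on the C57BL/6J background. The cells were kept in medium with 10% fetal bovine serum and then without serum for 6 days, which turns them into multiciliated ependymal cells. There were 3 wild-type (WT) libraries and 3 from mice with Edf1 knocked out by CRISPR/Cas9 (Edf1 KO), and both groups had the same culture and induction. Edf1 encodes a transcriptional coactivator that also binds collided ribosomes. The design text calls the replicates biological, and the labels do not say how many animals gave each culture or which part of Edf1 was removed.

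Pericytes lie on capillaries and are recruited by PDGF-B, a growth factor from endothelial cells that acts on the receptor encoded by Pdgfrb. Smooth muscle cells contract through actin and myosin, and their contractile genes are controlled by serum response factor (SRF) together with myocardin or the myocardin-related factors, which bind a DNA element called the CArG box. Several of these genes are not restricted to vessels. Acta2 and Tagln are also active in myofibroblasts and in many cultured adherent cells, and Cspg4 marks oligodendrocyte precursors as well as pericytes.

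The promoters of the members were read for the CArG box after the members' values were seen. This box is the element that contractile genes are known to share. Any link between a box and the levels of these genes was not tested. RefSeq promoter sequences on GRCm38.p6, reaching from 250 bases before to 50 bases after a gene's start, matched 7 of the 10 members. The consensus box has 6 A or T bases between a CC and a GG, and it reads the same way on both strands. It was present in 1.63% of all 32851 promoters, and 9.98% held either the consensus or a box with 1 G or C among the 6 inner bases. The Acta2 sequence (chr19:34255324-34255623, minus strand) held 2 boxes with 1 such base, beginning 84 and 34 bases before the RefSeq start. GENCODE places the beginning of Acta2 at 34255590 on this strand, so by that annotation both boxes lie inside the gene. All distances given here hold for the RefSeq starts only. The Myl9 sequence (chr2:156775214-156775513, plus strand) held 1 consensus box beginning 161 bases before the start and 1 box with a single G, beginning 99 bases before it. The boxes are in capitals, and the 3 sequences are shown because Acta2 was the most abundant member, Myl9 held the consensus and Cnn1 (chr9:22099003-22099302, plus strand) had the largest rise.
Acta2 promoter: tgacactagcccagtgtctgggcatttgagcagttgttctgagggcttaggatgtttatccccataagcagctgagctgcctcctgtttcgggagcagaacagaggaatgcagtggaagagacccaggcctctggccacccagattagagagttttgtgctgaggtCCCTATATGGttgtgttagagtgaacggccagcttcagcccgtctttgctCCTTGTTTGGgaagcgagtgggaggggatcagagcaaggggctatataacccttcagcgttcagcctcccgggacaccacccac
Myl9 promoter: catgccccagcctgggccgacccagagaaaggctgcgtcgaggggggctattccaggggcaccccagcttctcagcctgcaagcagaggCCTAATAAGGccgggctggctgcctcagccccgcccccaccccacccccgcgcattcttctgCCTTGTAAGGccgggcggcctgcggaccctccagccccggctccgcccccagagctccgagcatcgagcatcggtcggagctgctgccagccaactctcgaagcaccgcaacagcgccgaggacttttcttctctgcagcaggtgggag
Cnn1 promoter: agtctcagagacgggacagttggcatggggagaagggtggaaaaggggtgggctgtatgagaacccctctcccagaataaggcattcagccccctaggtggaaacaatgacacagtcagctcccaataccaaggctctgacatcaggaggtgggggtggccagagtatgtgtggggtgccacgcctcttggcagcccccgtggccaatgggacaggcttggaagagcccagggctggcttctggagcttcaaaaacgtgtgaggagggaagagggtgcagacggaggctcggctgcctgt
Neither form of the box was found in the windows of Cnn1, Cspg4, Des, Kcnj8 or Rgs5. Tagln, Myh11 and Pdgfrb had no matched window and were not read. These matches describe letters in the windows only, and sequence outside them, such as introns, was not read.

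Total counts per library were 13071766 to 28087006, and 14243 genes had enough counts to be tested. Edf1 itself was 82.6, 85.9 and 80.2 CPM (counts per 1e6 counts of the library) in the WT libraries and 9.84, 10.9 and 13.2 CPM in the Edf1 KO libraries, so the targeted gene went with the labels in all 6. CPM here is scaled by the TMM factors of edgeR, which adjust for library composition. Of the tested genes, 26.9% were called at an adjusted p under 0.05 by edgeR's quasi-likelihood test, 12.7% as higher and 14.2% as lower in the Edf1 KO. Over the whole tested set the log2 fold change had a median of 0.0029. All 8 ependymal markers on a list were above the floor of 3 counts in every library. Their summed level was 1864 to 2042 CPM in WT and 1052 to 1128 CPM in the Edf1 KO. This does not identify the cell type, since markers of other cells were also well counted. Microglia markers summed to 723 to 748 CPM in WT and 458 to 484 CPM in the Edf1 KO. Astrocyte and radial glia markers summed to 9688 CPM or more in every library.

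The 10 genes fell into 2 kinds. Acta2, Tagln, Myl9, Cnn1, Pdgfrb and Cspg4 were counted at 117 reads or more in every library, and each of these 6 was higher in the Edf1 KO by 15.2% to 56.3%. Myh11, Rgs5, Des and Kcnj8 were barely counted, with at most 26 reads in any library, and the WT and Edf1 KO values overlapped for each of them. So 6 of the 10 members, and 6 of the 7 that were tested, were called higher, against 12.7% of all tested genes. That share also covers genes with far fewer counts than these 6. One member, Myh11, was tested and did not pass, and 3 (Des, Rgs5 and Kcnj8) were too low for the test. The WT and Edf1 KO libraries did not overlap for these same 6 genes, always with the Edf1 KO higher, against 43.3% of all tested genes without overlap and 21.3% without overlap and higher in the Edf1 KO. In bulk RNA a change in the number of cells of a type and a change in the RNA of each cell cannot be told apart.

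**Figure D1:**
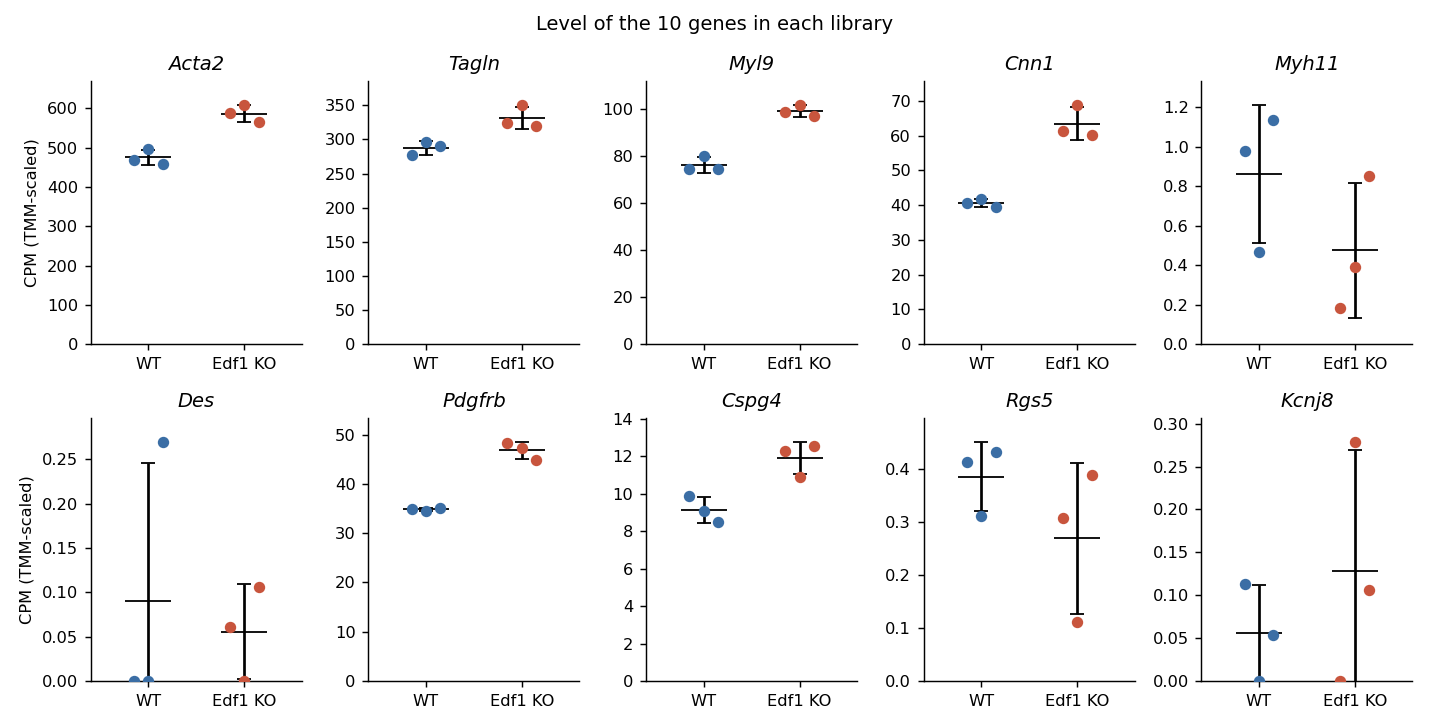
Level of each of the 10 genes in CPM (vertical axes, linear from 0, each panel on its own scale) in the 3 WT and 3 Edf1 KO libraries; points are libraries, the horizontal line is the mean and the bar is 1 SD. The 2 groups stand apart for Acta2, Tagln, Myl9, Cnn1, Pdgfrb and Cspg4, and they overlap for Myh11, Des, Rgs5 and Kcnj8, all of which lie at or under 1.14 CPM.

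Acta2 encodes smooth muscle alpha-actin, the actin of the contractile filament, and lies at chr19:34241090-34255590 on the minus strand (GRCm38, GENCODE M21). It had 469, 496 and 459 CPM in WT replicates 1 to 3 and 588, 608 and 564 CPM in the Edf1 KO. Every Edf1 KO library was above every WT library. The mean rose from 475 ± 19.0 to 586 ± 21.9 CPM (SD, n = 3 each), a log2 fold change of 0.30 (SE 0.048, edgeR adjusted p = 0.000539). Acta2 supplied 0.0458% to 0.0489% of all counts in WT and 0.0567% to 0.0608% in the Edf1 KO.

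Tagln encodes transgelin, a protein that binds and bundles actin filaments in smooth muscle. Its level was 277, 296 and 290.3 CPM in WT and 324, 350.4 and 320.3 CPM in the Edf1 KO. The groups did not overlap, but the rise was the smallest of the 6, at 0.20 on the log2 scale (SE 0.051, edgeR adjusted p = 0.0105). The call was lost without WT replicate 1 (0.18, edgeR adjusted p = 0.0569) and without Edf1 KO replicate 2 (0.16, edgeR adjusted p = 0.0690), and it misses a threshold of 0.01. The gene lies on the minus strand at chr9:45929619-45936058 (GRCm38), where 67.9% of its exon length is overlapped by exons of Pcsk7 and Gm48529 on the other strand. Since it is not stated whether counting used strand, its level is uncertain. Pcsk7, a proprotein convertase gene, was far lower at 21.7 to 26.3 CPM and did not pass the test (log2 fold change 0.082, edgeR adjusted p = 0.523).

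Myl9 (chr2:156775420-156781658, plus strand) encodes the regulatory light chain of smooth muscle myosin, whose phosphorylation switches contraction on. It had 74.5, 80.1 and 74.4 CPM in WT and 98.7, 102 and 96.9 CPM in the Edf1 KO. All 3 Edf1 KO values were above all WT values, and the log2 fold change was 0.38 (SE 0.056, edgeR adjusted p = 0.000303). Cnn1 (chr9:22099216-22109630, plus strand) encodes calponin 1, an actin-binding protein that restrains myosin activity. Its level was 40.6, 41.9 and 39.4 CPM in WT and 61.5, 68.9 and 60.2 CPM in the Edf1 KO. This was the largest rise among the members, from 40.6 ± 1.24 to 63.5 ± 4.67 CPM (SD, n = 3 each), a log2 fold change of 0.64 (SE 0.067, edgeR adjusted p = 1.95e-05). Of all tested genes, 95.9% had a lower log2 fold change than Cnn1.

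Myh11 encodes the heavy chain of smooth muscle myosin and is regarded as the most specific marker of mature smooth muscle. It had 26, 6 and 21 counts in WT and 3, 7 and 24 counts in the Edf1 KO, or 0.979, 0.466 and 1.14 CPM against 0.184, 0.390 and 0.850 CPM. The values of the groups overlapped, with the highest Edf1 KO library above the lowest WT library. The log2 fold change was -0.76 (SE 0.48, edgeR adjusted p = 0.263), and it ran from -1.60 without Edf1 KO replicate 3 to -0.45 without Edf1 KO replicate 1. Des encodes desmin, the intermediate filament of muscle, also present in pericytes. It had 0, 0 and 5 counts in WT and 1, 0 and 3 counts in the Edf1 KO, so it exceeded the floor of 3 counts in 1 library only.

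Pdgfrb encodes the PDGF receptor beta, which pericytes need for their recruitment. It was measured at 35.0, 34.4 and 35.1 CPM in WT and 48.3, 47.3 and 44.8 CPM in the Edf1 KO. WT libraries differed by less than 1 CPM, and each Edf1 KO library was higher. The mean went from 34.8 ± 0.361 to 46.8 ± 1.80 CPM (SD, n = 3 each), a log2 fold change of 0.42 (SE 0.063, edgeR adjusted p = 0.000317). Cspg4 (chr9:56865033-56899870, plus strand) encodes NG2, a membrane proteoglycan of pericytes and oligodendrocyte precursors. Its level was 9.87, 9.09 and 8.49 CPM in WT and 12.3, 10.9 and 12.5 CPM in the Edf1 KO. The groups did not overlap, and the log2 fold change was 0.38 (SE 0.11, edgeR adjusted p = 0.0224). Among the 6 it was lost in the most alternatives: without WT replicate 3 (0.33, edgeR adjusted p = 0.0701), without Edf1 KO replicate 1 (0.36, 0.0754) or replicate 3 (0.34, 0.0995), after a correction for GC content and transcript length (0.23, 0.131), and at the stricter threshold of 0.01.

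Rgs5, a regulator of G-protein signalling, and Kcnj8, a subunit of an ATP-sensitive potassium channel, are the members most typical of brain pericytes. Rgs5 had 11, 4 and 8 counts in WT and 5, 2 and 11 counts in the Edf1 KO. Kcnj8 had 3, 0 and 1 counts in WT and 0, 5 and 3 counts in the Edf1 KO. Neither gene separated the groups. From counts summed over each group, the Edf1 KO to WT ratio was 0.726 for Rgs5, with an exact 95% Poisson interval of 0.369 to 1.41. For Kcnj8 it was 1.85 (0.497 to 8.42), and for Des it was 0.742 (0.147 to 3.45). Myh11 had a ratio of 0.595 (0.375 to 0.932), the only one of the 4 intervals that leaves out 1, and it points lower. These intervals cover counting error only and not the spread between libraries, over which Myh11 did not pass, and a change of 2-fold in Kcnj8 or Des in either direction was not detectable at this depth.

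**Figure D2:**
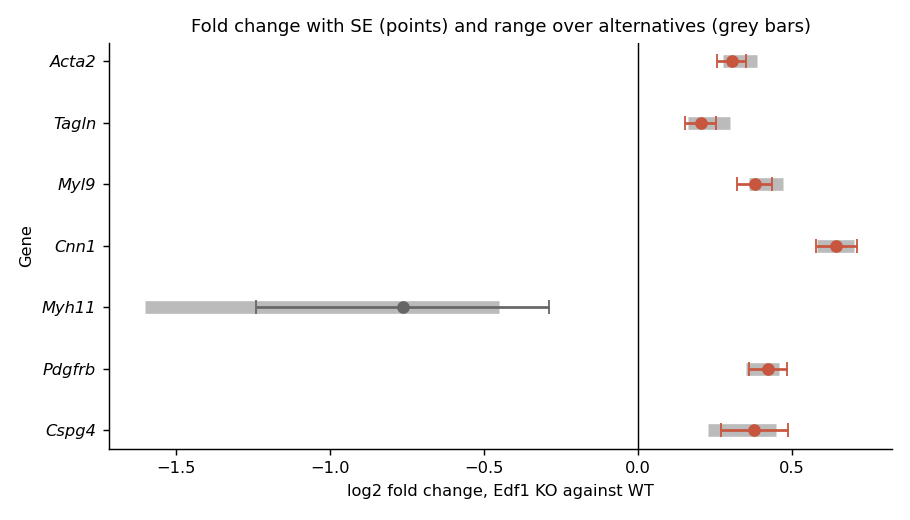
Log2 fold change of Edf1 KO against WT (horizontal axis) for the 7 members that could be tested (vertical axis); points and thin bars are the edgeR estimate with its SE, red where the adjusted p-value was under 0.05, and grey bars span the 15 alternative settings (14 for Myh11). The 6 red points lie from 0.20 to 0.64, and Myh11 lies at -0.76 with a wide range.

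Levels of different genes were compared per kb of exon. In WT the order was Acta2 at 216, Tagln at 145, Myl9 at 65.7, Cnn1 at 14.9, Pdgfrb at 6.36 and Cspg4 at 0.767 CPM per kb. Myh11 and Rgs5 followed at 0.113 and 0.0849, and Des and Kcnj8 at 0.0240 and 0.0219. In the Edf1 KO the first 6 kept that order, at 267, 167, 85.3, 23.2, 8.54 and 0.999 CPM per kb. Acta2 was above 99.2% of the tested genes on this scale and Pdgfrb above 54.7%, whereas Myh11 was above 0.489% and Rgs5 above 0.255%. Among the 4 low genes the counts are too few to rank neighbours. Myh11 and Rgs5 exceeded the floor of 3 counts in 5 of 6 libraries each, and Des and Kcnj8 in 1 each. These markers of mature smooth muscle and pericytes were thus low beside abundant Acta2 and Tagln, and the name of the gene set is used here for the genes and not for cells in the cultures.

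**Figure D3:**
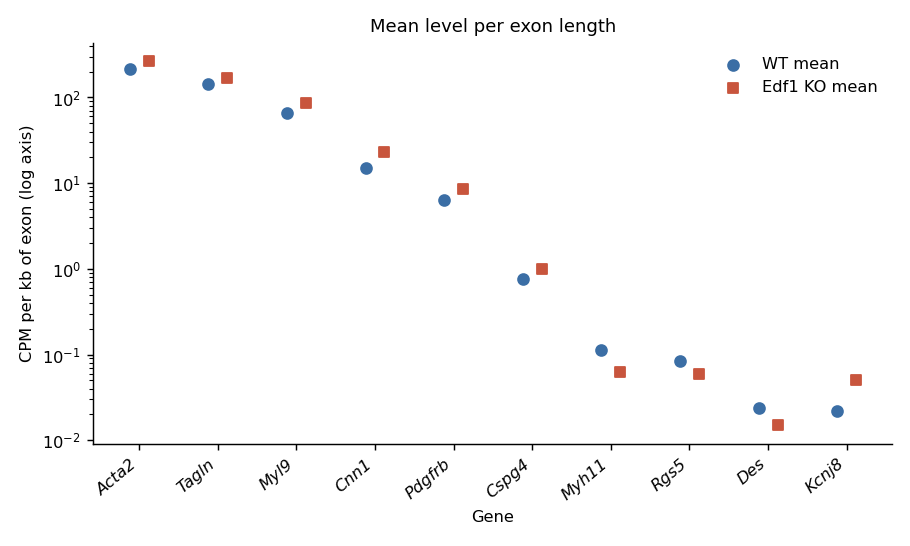
Mean level in CPM per kb of exon (vertical axis, logarithmic) of the 10 genes (horizontal axis) in WT (circles) and Edf1 KO (squares). Acta2 is highest at 216 in WT and 267 in the Edf1 KO, and Myh11, Rgs5, Des and Kcnj8 all lie at or under 0.113.

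To compare the rises of the abundant members, their counts were set against the Acta2 counts of the same library. Counts of Cnn1 were 8.66%, 8.44% and 8.58% of the Acta2 counts in WT and 10.5%, 11.3% and 10.7% in the Edf1 KO. The Tagln shares ran at 59.0%, 59.8% and 63.2% in WT, with 55.1%, 57.7% and 56.8% in the Edf1 KO, so this ratio was lower in each Edf1 KO library. Myl9 moved from 16.1% ± 0.178 to 16.9% ± 0.240 of the Acta2 counts and Pdgfrb from 7.34% ± 0.364 to 7.98% ± 0.216 (SD, n = 3 each). Cspg4 kept overlapping shares of 1.832% to 2.102% in WT and 1.80% to 2.22% in the Edf1 KO. The ratios of Cnn1, Tagln, Myl9 and Pdgfrb each gave a two-sided exact permutation p of 0.1, the smallest that 3 against 3 libraries allow, and Cspg4 gave an exact p of 0.7. After Benjamini-Hochberg adjustment over the 5 ratios the values were 0.125 and 0.7 in these exact tests, so none of these differences could pass 0.05 in this design.

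**Figure D4:**
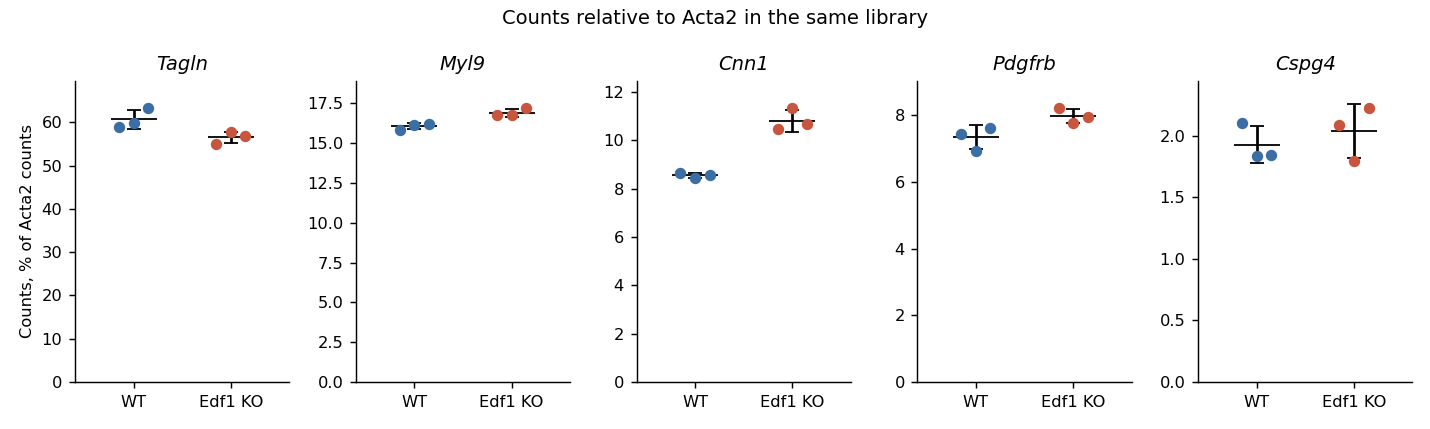
Counts of 5 members as a percentage of the Acta2 counts in the same library (vertical axes, linear from 0) for WT and Edf1 KO; points are libraries, the line is the mean and the bar is 1 SD. Cnn1 stands apart most clearly, at 8.56% in WT and 10.8% in the Edf1 KO.

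Acta2, Myl9, Cnn1 and Tagln each have close relatives in the table, and these relatives were added after the members' values were seen. The cytoplasmic actin gene Actb had 1332, 1415 and 1334 CPM in WT and 1374, 1401 and 1338 CPM in the Edf1 KO and did not pass the test (log2 fold change 0.012, edgeR adjusted p = 0.878). Actg1, the other cytoplasmic actin gene, had 1168, 1267 and 1155 CPM in WT and 1318, 1359 and 1281 CPM in the Edf1 KO. Its groups did not overlap, and it rose by 0.14 on the log2 scale (SE 0.049, edgeR adjusted p = 0.0495), close to the threshold. The muscle actin genes Acta1, Actc1 and Actg2 had at most 13 counts in a library. Acta2 was 15.6% to 15.8% of the counts of 6 actin genes in WT and 17.7% to 18.0% in the Edf1 KO. Myl9 was 13.4% to 13.9% of the counts of 3 regulatory light chain genes in WT and 16.7% to 17.0% in the Edf1 KO, where its relatives Myl12a (0.10, edgeR adjusted p = 0.185) and Myl12b (-0.10, edgeR adjusted p = 0.185) did not pass. Cnn1 was 2.47% ± 0.0503 of the calponin counts in WT and 3.48% ± 0.198 in the Edf1 KO (SD, n = 3 each). Its relative Cnn2 also rose (0.55, edgeR adjusted p = 7.06e-06), while Cnn3, the most abundant calponin gene, did not pass (0.098, edgeR adjusted p = 0.146). Tagln was the exception, since its share of the transgelin counts overlapped between the groups, at 68.6% to 69.6% in WT and 69.4% to 71.2% in the Edf1 KO. Few of the 31-base stretches of the Acta2 transcript (1.5%) or the Myl9 transcript (0.455%) occur in another gene, and 53.8% of those of Tagln do, most of them in Gm48529. Stretches were compared without regard to strand, so those of Tagln include its exon overlap with Gm48529 on the other strand.

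Other contractile genes and their regulators were read from a list of 18, of which 15 were tested. Of these, 9 rose and 1 fell, with a median log2 fold change of 0.26. The largest rise was that of Tpm2, a tropomyosin that lies along the actin filament, from 15.8 to 19.5 CPM in WT to 28.2 to 31.4 CPM in the Edf1 KO (log2 fold change 0.73, SE 0.092, edgeR adjusted p = 8.60e-05). Cald1, which encodes the actin-binding protein caldesmon, rose by 0.52 on the log2 scale (edgeR adjusted p = 0.000166), and Vcl, which encodes vinculin of cell adhesions, by 0.46 (3.53e-05). Synpo2, which encodes an actin-associated protein of muscle, was the gene that fell, with a log2 fold change of -0.23 (edgeR adjusted p = 0.0173). Lmod1 (0.15, edgeR adjusted p = 0.179) and Mylk (-0.25, edgeR adjusted p = 0.420) did not pass. The regulators themselves gave no call in RNA level, and the activity of their proteins was not measured. Srf had 28.3 to 33.8 CPM in WT and 28.8 to 30.0 CPM in the Edf1 KO (log2 fold change -0.062, edgeR adjusted p = 0.618). Its cofactor genes Mrtfa (0.053) and Mrtfb (0.028) did not pass either, and Myocd, which encodes myocardin, had 3 to 10 counts in a library and could not be tested. The smooth muscle actin gene Actg2 had 1, 0 and 0 counts in WT and 2, 5 and 13 in the Edf1 KO and was also too low to test.

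Other pericyte genes were mostly low. Of 15 on the list, 9 were too low for the test, and Abcc9, which encodes the channel partner of the Kcnj8 product, had 1 count in all 6 libraries together. Vtn was above the floor in all 6 libraries but also too low for the test. Abcc9, Higd1b, Foxs1 and Foxf2 did not exceed 3 counts in any library. Of the 6 tested genes, 2 rose and 4 did not pass, with a median log2 fold change of 0.31. Notch3, a Notch receptor of mural cells, rose from 30.6 to 33.4 CPM in WT to 35.5 to 42.7 CPM in the Edf1 KO (0.29, edgeR adjusted p = 0.0191). Mcam, an adhesion molecule gene, rose by 0.34 on the log2 scale (edgeR adjusted p = 0.0162).

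The ligands and receptors of the PDGF pathway were all tested. Pdgfb, the ligand of the Pdgfrb product, had 12.8, 15.2 and 13.9 CPM in WT and 20.4, 18.5 and 19.9 CPM in the Edf1 KO. All Edf1 KO libraries were higher, and the log2 fold change was 0.50 (SE 0.091, edgeR adjusted p = 0.00148). Pdgfc (0.45, edgeR adjusted p = 0.00111) and Pdgfrl, a receptor-like gene (0.28, edgeR adjusted p = 0.00471), also rose. Pdgfa (0.050, edgeR adjusted p = 0.674), Pdgfd (0.21, edgeR adjusted p = 0.0526) and Pdgfra (-0.091, edgeR adjusted p = 0.584) did not pass. Pdgfrb made up 73.7% to 75.3% of the counts of both receptor genes in WT and 79.4% to 81.7% in the Edf1 KO.

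Markers of other cells moved beside these genes, and their part in the results was not tested. Of 11 tested fibroblast markers, 9 rose and 2 did not pass, with a median log2 fold change of 0.82, which is above that of every member. Their summed level was 544.5 to 619 CPM in WT and 724.5 to 866 CPM in the Edf1 KO, and no marker of the list was at 0 in all libraries. Most of that sum came from Fn1, with a mean of 395.5 CPM in WT and 540.6 CPM in the Edf1 KO (log2 fold change 0.45, edgeR adjusted p = 0.000664). The 2 that did not pass were Islr (-0.014) and Thy1 (-0.21). Col1a1, a fibrillar collagen gene, had 17.3, 25.4 and 24.7 CPM in WT and 45.7, 49.0 and 39.5 CPM in the Edf1 KO, and Dcn, which encodes the proteoglycan decorin, had 7.53 to 8.81 against 14.0 to 25.3 CPM. Of 14 endothelial markers, 5 were tested, of which 1 rose and 1 fell. Pecam1, a defining marker of endothelium, had 2 to 5 counts in a library, and Cldn5, Tie1 and Emcn did not exceed 3. The summed endothelial level was 651 to 714 CPM in WT and 764 to 794 CPM in the Edf1 KO, most of it from the transporter gene Slco1a4, which did not pass (log2 fold change 0.017, edgeR adjusted p = 0.830). The gene that rose was Kdr, a VEGF receptor gene, from 34.4 to 39.9 CPM in WT to 124 to 128 CPM in the Edf1 KO (1.73, edgeR adjusted p = 2.20e-08). The gene that fell was Flt1, another VEGF receptor gene, from 10.7 to 12.02 CPM in WT to 3.51 to 4.06 CPM in the Edf1 KO (-1.58, edgeR adjusted p = 2.49e-06). Of 5 tested oligodendrocyte precursor markers, which share Cspg4 with pericytes, 2 fell and 3 did not pass. The summed level of the list was 313 to 327 CPM in WT and 289 to 309 CPM in the Edf1 KO. Most of it came from Bcan, which fell from a mean of 201.1 to 173.3 CPM (-0.21, edgeR adjusted p = 0.00506). Lhfpl3 also fell (-0.47, edgeR adjusted p = 0.00648). Olig1 (0.12), Olig2 (0.099) and Pdgfra did not pass, and Sox10, Gpr17 and Neu4 were too low for the test. All 8 ependymal markers fell, with a median log2 fold change of -1.01. Of 7 microglia markers 6 fell, and of 7 astrocyte and radial glia markers 3 rose and 1 fell. Of 10 striated muscle markers Myod1 had no count, and the 4 that were tested had adjusted p-values of 0.147 to 0.888 by edgeR.

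**Figure D5:**
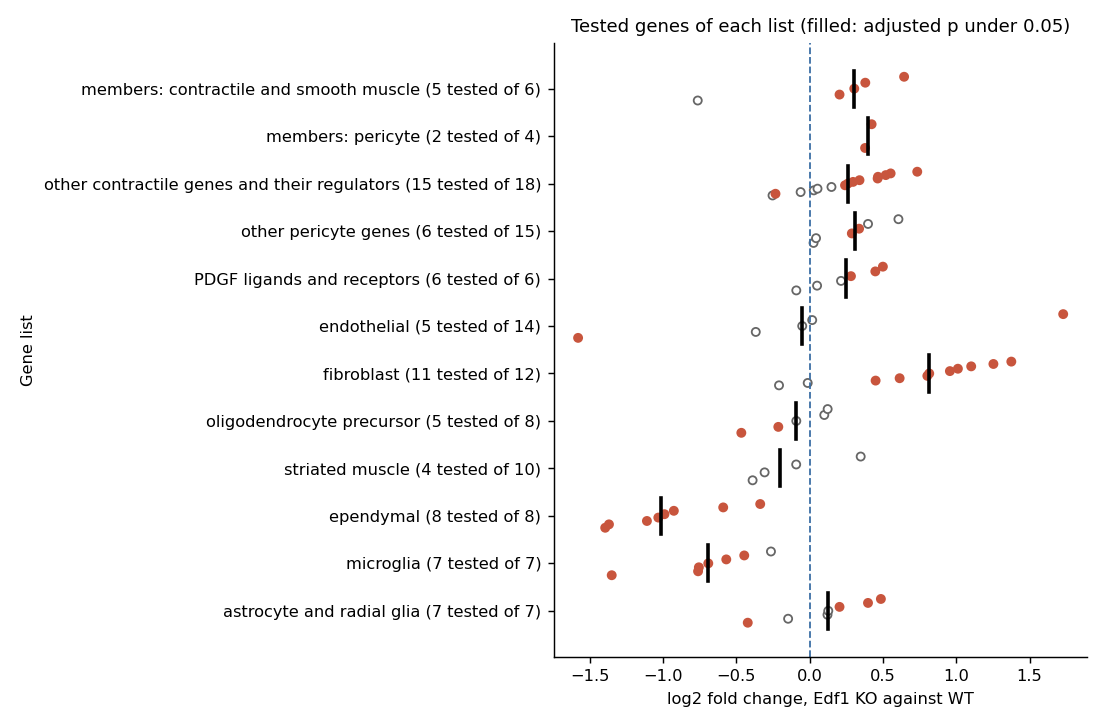
Log2 fold change of Edf1 KO against WT (horizontal axis) of the tested genes of each list (vertical axis); filled points passed an adjusted p-value of 0.05, black ticks are list medians and the dashed line is the median of all tested genes at 0.0029. The abundant members lie to the right of the line, with all tested fibroblast markers but Islr and Thy1. The fibroblast median is 0.82, and the ependymal and microglia markers lie to the left.

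The genes whose levels over the 6 libraries were most like the mean profile of the 7 tested members were Nkx2-2, Ccn1, Dnajc14, Gsto1 and Osbpl3, with Pearson correlations of 0.998 to 0.999 over 6 libraries. The likeness was computed on log2 CPM, and the 6 points share the split into genotypes, so it is a description. It is shared widely, since 514 of 12883 candidate genes had a correlation over 0.95. Ccn1, which encodes a secreted matrix protein, was the most abundant of the 5, with 259.6, 263 and 255 CPM in WT and 327, 346 and 333 CPM in the Edf1 KO. Nkx2-2, a transcription factor gene of the ventral neural tube, had 6.43 to 6.68 CPM in WT and 9.53 to 10.1 CPM in the Edf1 KO.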

How the data were processed

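RNA of 6 mouse cultures was extracted with TRIzol and sequenced from libraries of the MGIEasy mRNA kit, as the labels' protocols state. The submitters' processing notes list FastQC 0.11.2, cutadapt 1.11, HISAT2 2.1.0 and the build GRCm38. The counting program, annotation and use of strand are not given in the sources used here. The deposited table holds raw read counts per gene symbol, whole numbers whose totals differ between libraries. Each column was matched to a sample by genotype and replicate number, and 0 rows named no gene.

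In R 4.3.3, genes were filtered with filterByExpr of edgeR 4.0.16, scaled with TMM and tested with edgeR's quasi-likelihood test of Edf1 KO against WT over all 6 libraries without covariates. P-values were adjusted by Benjamini-Hochberg over all 14243 tested genes, with a threshold of 0.05. The SE was taken as the absolute log2 fold change over the root of the F statistic. Log2 CPM used a prior count of 2. The depth of 13071766 to 28087006 counts puts the floor of 3 counts at 0.106 to 0.233 CPM. Exon lengths, shared 31-base stretches and exon overlaps came from GENCODE M21, and promoters from RefSeq. The list symbols Mkl1 and Mkl2 were matched through RefSeq synonyms to Mrtfa and Mrtfb.

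The members and lists were chosen with earlier results of these data known, and lists are described by counts and medians. All 10 members are named, and from each list at most 4 called genes with large changes and those linked to a member, such as a ligand, paralog or regulator. Col1a1, Dcn, Fn1, Lhfpl3 and Bcan, and some uncalled list genes, were named after their values were seen. The genes most like the members are the 5 with the highest Pearson correlation among those with a mean log2 CPM of at least 1. Alternatives used DESeq2 1.42.0, limma 3.58.1, other scalings and filters, a replicate block, libraries left out and a GC and length correction with splines of 4 degrees of freedom. The fits were tested on simulated counts. Deviations of same-numbered libraries correlated at 0.069, 0.060 and 0.037, so the libraries were not treated as pairs.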

Additional observations from a re-analysis of the deposited data

How the results depend on the processing

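The number of members called higher was 6 in the reported fit and stayed at 6 with DESeq2 size factors, unscaled library sizes, all genes with at least 1 count, a mean of at least 50 counts, DESeq2 and limma voom. It was 5 after the GC and length correction, 5 to 6 when 1 library at a time was left out, and 4 at an adjusted p-value under 0.01. Acta2, Myl9, Cnn1 and Pdgfrb passed in all 15 alternatives, with log2 fold changes of 0.28 to 0.39, 0.36 to 0.47, 0.58 to 0.70 and 0.35 to 0.46. Tagln (0.16 to 0.30) lost its call in 3 and Cspg4 (0.23 to 0.45) in 5 of the 15, all in the same direction, and the cause was not tested. Myh11 stayed below 0 (-1.60 to -0.45) and passed in none of its 14, with adjusted p-values of 0.0731 to 0.552 by edgeR, DESeq2 or limma. Over all genes, 3833 were called, and 2213 at an adjusted p-value under 0.01. The fits without one library called 2658 to 4340.

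With the replicate number as a block, 4065 genes were called, of which 3683 were also called without it, and the members called higher were again 6. Depth limits Myh11, Des, Rgs5 and Kcnj8, whose counts were at most 26 in a library.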
